A study of Homo sapiens with 6 samples.

Results

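The genes described here encode 10 proteins with a follistatin-like domain: SPARC, SPARCL1, SMOC1, SMOC2, SPOCK1, SPOCK2, SPOCK3, FSTL1, TMEFF1 and TMEFF2. They are 10 of the 58395 genes in each count table and were found by symbol. The family was chosen by the fold changes of SPARC and TMEFF2 between the groups of lines compared below. The values of those 2 genes in that comparison are therefore a description, given without a p-value. The other members were taken for their domain.

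RNA was sequenced from 6 clonal lines of HEK293, an established human cell line of embryonic kidney origin. In 3 lines (numbered 2, 8 and 9) the cells expressed glutathione S-transferase (GST) with the tag written 3F in the labels. In the other 3 (numbered 4, 11 and 12) they expressed nocturnin lacking residues 2 to 15 (NOCT Δ(2-15)) with the same tag. Nocturnin is a clock-regulated enzyme with the fold of deadenylases, and GST served as the control protein. All 6 lines were grown for 3 days without further treatment, and each is a single clone, so a difference between groups is a difference between 3 clones and 3 clones. The p-values below set the difference between groups against a spread between those clones, which is estimated partly from other genes.

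The follistatin-like domain is a cysteine-rich module that joins an EGF-like part to a Kazal-type part, the fold of a class of protease inhibitors. In SPARC (also called osteonectin) and its relatives SPARCL1, the SMOC proteins and the testicans encoded by SPOCK genes, it is followed by a calcium-binding region, and the proteins are secreted into the extracellular matrix. FSTL1 is a secreted glycoprotein of the same wider family. TMEFF1 and TMEFF2 differ from the rest: they are membrane proteins whose outer part carries follistatin domains and an EGF-like domain. Several members bind or modulate growth factors of the TGF-beta, activin and BMP family.

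The 6 libraries held 19729745 to 24422406 counts on genes. The construct rows matched the labels. The GST construct had 46 to 88 counts in the GST lines and 0 or 1 in the NOCT lines, and the NOCT construct had 46 to 82 counts in the NOCT lines and 3 to 7 in the GST lines. Of 8 genes typical of HEK293 cells (neurofilament, early kidney and keratin genes), all 8 had counts, and 7 of them had a mean of at least 1 TPM. TPM is the abundance of a transcript scaled for gene length and depth and is used here for every comparison of levels between genes.

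SPARC and TMEFF2 moved in opposite directions. SPARC, a collagen-binding matricellular protein, was higher in every NOCT line. TMEFF2, a membrane protein best known from brain and prostate, was lower in every NOCT line. Of the 7 members with enough counts to be tested, edgeR's quasi-likelihood test at an adjusted p of 0.05 counted 1 higher (SPARC) and 1 lower (TMEFF2), a count that the choice of the family had fixed. Over all 17261 genes tested, 4 (0.0232%) were called higher and 6 (0.0348%) lower. Nothing is read from the comparison of those shares. With the spike-in totals as library sizes, 14 genes were called higher and 8 lower, and the log2 fold changes over all genes then had a median of 0.15 in place of 0.00.

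SPARC (ENSG00000113140; GRCh38, chromosome 5, 151661096 to 151687165, minus strand) had 383, 654 and 418 counts in GST lines 2, 8 and 9. It had 1908, 1815 and 1431 counts in NOCT lines 4, 11 and 12. On the TPM scale its level was 11.2, 18.3 and 11.8 in the GST lines and 48.0, 49.96 and 42.1 in the NOCT lines. The groups did not overlap: the lowest NOCT line lay 2.37-fold above the highest GST line in CPM (gene counts divided by the TMM-scaled depth of the library). Means were 23.7 CPM ± 5.76 (SD, n = 3) in the GST lines and 76.0 CPM ± 4.87 (SD, n = 3) in the NOCT lines, a 3.21-fold difference (fitted log2 fold change 1.68, SE 0.17). The coefficient of variation among lines was 24.3% in the GST group, where counting error alone gives 4.54%, and 6.41% in the NOCT group. In bulk RNA, a change in the share of cells that carry a transcript and a change in RNA per cell cannot be told apart.

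TMEFF2 (ENSG00000144339; GRCh38, chromosome 2, 191949043 to 192195709, minus strand) had 155, 267 and 248 counts in the GST lines and 8, 28 and 15 in the NOCT lines. Its level was 3.31, 5.44 and 5.11 TPM in GST lines 2, 8 and 9 and 0.147, 0.561 and 0.321 TPM in NOCT lines 4, 11 and 12. The groups did not overlap, with the lowest GST line 6.52-fold above the highest NOCT line in CPM. Means were 10.9 CPM ± 2.37 (SD, n = 3) against 0.773 CPM ± 0.470 (SD, n = 3). The level was 14.2-fold lower (fitted log2 fold change -3.83, SE 0.43). The transcript was still counted in every NOCT line, at 2.88%, 11.5% and 6.89% of the GST mean in lines 4, 11 and 12. Within the NOCT group the highest line lay 3.99-fold above the lowest, and the coefficient of variation of 60.8% exceeded the 24.25% that counting error gives.

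The groups did not overlap for SPARC or TMEFF2, so leaving out a line could not reverse their direction. When each line was left out in turn, edgeR called 0 to 2 of the 7 tested members. The fitted values of SPARC then ran from 1.58 to 1.89 and those of TMEFF2 from -4.39 to -3.43. SPARC stood at 1.58 without GST line 2, 1.59 without GST line 9 and 1.63 without NOCT line 11. TMEFF2 stood at -4.00 without GST line 2 and -4.39 without NOCT line 11. On the log2(TPM + 1) scale, which understates differences of low genes, SPARC differed by 1.72 and TMEFF2 by -2.05.

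**Figure D1:**
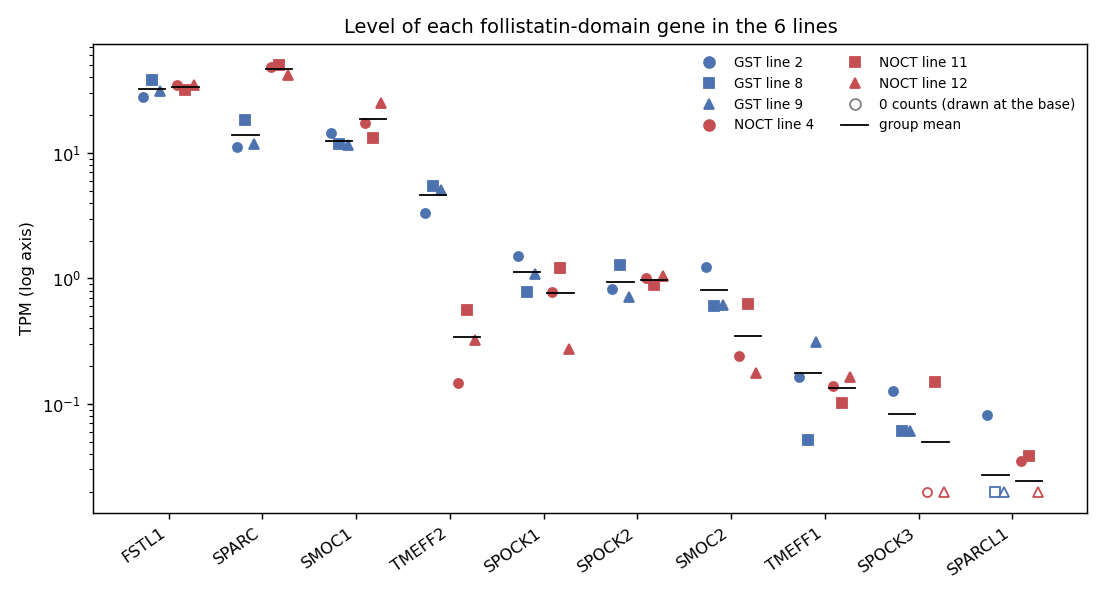
Level of each of the 10 members in TPM (log axis), with 1 point for each of the 6 lines, GST lines in blue and NOCT lines in red, a bar for the mean of each group, and open points at the base for lines with 0 counts. SPARC sits at 11.2 to 18.3 TPM in the GST lines and 42.1 to 49.96 TPM in the NOCT lines, TMEFF2 at 3.31 to 5.44 TPM and 0.147 to 0.561 TPM, and the other members overlap between groups.

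The sequences just upstream of the RefSeq start sites are shown for these 2 genes because their levels moved apart. The windows examined ran from 250 bases before to 50 bases after each start (RefSeq, GRCh38.p14, 35116 windows in all). They were found for 9 of the 10 members, in 12 windows. Capitals mark GGAGGA, a purine-rich repeat, in SPARC (chr5:151687012-151687041, minus strand, bases -126 to -97 from the start) and CACGTG, the palindromic E-box, in TMEFF2 (chr2:192194961-192194990, minus strand, bases -57 to -28). Both stretches lie in a non-coding part of an exon of a longer annotated transcript, SPARC-201 and TMEFF2-201 in GENCODE release 29.
SPARC: ggccgggggaaGGAGGAgacaGGAGGAGGA
TMEFF2: actgcctcttccCACGTGaccccgggcggg

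The 6 letters GGAGGA, searched on both strands and counting overlapping matches, occurred 5 times in the SPARC window. Of all windows, 36.6% held at least 1 match and 99.2% held fewer than the SPARC window. Other members held it too. The windows of FSTL1 and SMOC2 and 1 window of SPOCK3 had 3 matches each, where 96.2% of all windows held fewer. A window of SPOCK2 had 2 matches and that of TMEFF2 had 1. The SPARC stretch shown was picked as the 30 bases before the start with the most matches. CACGTG occurred once in the TMEFF2 window and in 7.26% of all windows, and no window of another member held it. The SPARC window held 11 CpG dinucleotides, and 45.3% of all windows held fewer. The TMEFF2 window held 24, as did that of SMOC1, against a median of 14 over all windows. FSTL1 had 30 CpG, SMOC2 28 and TMEFF1 37 in their windows, while SPARCL1 had 2. These are letters in a window and were not tested against the expression values.

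FSTL1, which binds BMPs and the receptor DIP2A, did not pass the test. FSTL1 (ENSG00000163430; GRCh38, chromosome 3, 120392293 to 120451253, minus strand) stood at 28.0, 38.2 and 31.3 TPM in the GST lines and at 34.98, 31.6 and 34.9 TPM in the NOCT lines. All 3 NOCT lines lay inside the range of the GST lines. The log2 fold change was -0.02, with a 95% interval of -0.28 to 0.24 and an edgeR adjusted p of 0.947, and it was 0.12 with the spike-in totals as library sizes. With 1726 to 2510 counts per line, FSTL1 is the member with the most counts in the GST lines and has the narrowest interval of the 7 tested. Its annotated exons contain the microRNA gene MIR198, which had 0 counts in all 6 tables.

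The SMOC genes encode matrix proteins that modulate BMP signalling. SMOC1 (ENSG00000198732; GRCh38, chromosome 14, 69854131 to 70032366, plus strand) had 14.4, 11.7 and 11.5 TPM in the GST lines and 17.2, 13.2 and 25.1 TPM in the NOCT lines. NOCT line 12 was the highest and NOCT line 11 lay within the GST range. The log2 fold change was 0.48 with a 95% interval of -0.10 to 1.06 and an edgeR adjusted p of 0.436. The genes around SMOC1 were also at different levels between lines. Over 50 tested neighbours on each side, the median log2 deviation from the mean of all lines was 0.06, -0.36 and -0.21 in the GST lines and 0.19, 0.11 and 0.15 in the NOCT lines. With that level removed, the log2 fold change of SMOC1 was 0.17 (edgeR adjusted p = 0.764).

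SMOC2 (ENSG00000112562; GRCh38, chromosome 6, 168441151 to 168673445, plus strand) was scarce, with 35, 18 and 18 counts in the GST lines and 8, 19 and 5 in the NOCT lines. Its level was 1.23, 0.603 and 0.610 TPM in the GST lines and 0.241, 0.627 and 0.176 TPM in the NOCT lines. NOCT lines 4 and 12 lay below every GST line, and NOCT line 11 lay among them. The log2 fold change of -1.31 had a 95% interval of -2.56 to -0.06 and an edgeR adjusted p of 0.337, which did not pass. The unadjusted p was 0.0419, and 13.9% of all genes tested had an unadjusted p under 0.05.

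The testicans are proteoglycans that carry a thyroglobulin-type domain, and they are known mainly from brain matrix, where they affect metalloproteases and cathepsins. SPOCK1 (ENSG00000152377; GRCh38, chromosome 5, 136975298 to 137598379, minus strand) had 1.504, 0.781 and 1.08 TPM in the GST lines and 0.782, 1.22 and 0.274 TPM in the NOCT lines. NOCT line 12 was low and the groups overlapped. The log2 fold change was -0.66 with a 95% interval of -1.80 to 0.47 and an edgeR adjusted p of 0.588.

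SPOCK2 (ENSG00000107742; GRCh38, chromosome 10, 72059035 to 72089032, minus strand) had 0.820, 1.27 and 0.707 TPM in the GST lines and 1.000, 0.891 and 1.04 TPM in the NOCT lines. All 3 NOCT lines lay inside the GST range. The log2 fold change was -0.01, with a 95% interval of -0.66 to 0.63 and an edgeR adjusted p of 0.988, and it was 0.13 with the spike-in totals as library sizes. SPOCK3 (ENSG00000196104; GRCh38, chromosome 4, 166733384 to 167234796, minus strand) had 4, 2 and 2 counts in the GST lines and 0, 5 and 0 in the NOCT lines. A count of 0 allows up to 0.0814 TPM in NOCT line 4 and 0.0951 TPM in NOCT line 12, for counting error only, so no difference was detectable at this depth.

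SPARCL1 and TMEFF1 were also too scarce to test. SPARCL1 (ENSG00000152583; GRCh38, chromosome 4, 87473335 to 87531061, minus strand) encodes hevin, the closest relative of SPARC and an astrocyte protein that acts at synapses. It had 2, 0 and 0 counts in the GST lines and 1, 1 and 0 in the NOCT lines, and a count of 0 allows up to 0.118 TPM in GST line 9 and 0.123 TPM in NOCT line 12. TMEFF1 (ENSG00000241697; GRCh38, chromosome 9, 100473113 to 100577636, plus strand) encodes the paralogue of TMEFF2, which blocks nodal signalling through its co-receptor. It had 3, 1 and 6 counts in the GST lines and 3, 2 and 3 in the NOCT lines. Of its 2611 annotated exon bases, 1983 are shared on the same strand with the read-through gene MSANTD3-TMEFF1, which leaves 24.1% unique. The read-through gene had 0 counts in every line, so reads that fit both genes may not have been assigned to either, and the level of TMEFF1 is uncertain.

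Of the 7 members tested, the groups did not overlap in CPM for 1 member in the higher direction and 1 in the lower direction, SPARC and TMEFF2. The choice of the family had fixed that count, so nothing is read from setting it against the shares over all genes. Over all genes tested the groups did not overlap for 10.5% with the NOCT lines higher and for 9.54% with the NOCT lines lower. In the remaining 5 tested members the groups overlapped. These members had log2 fold changes between -1.31 and 0.48, and edgeR called none of them.

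**Figure D2:**
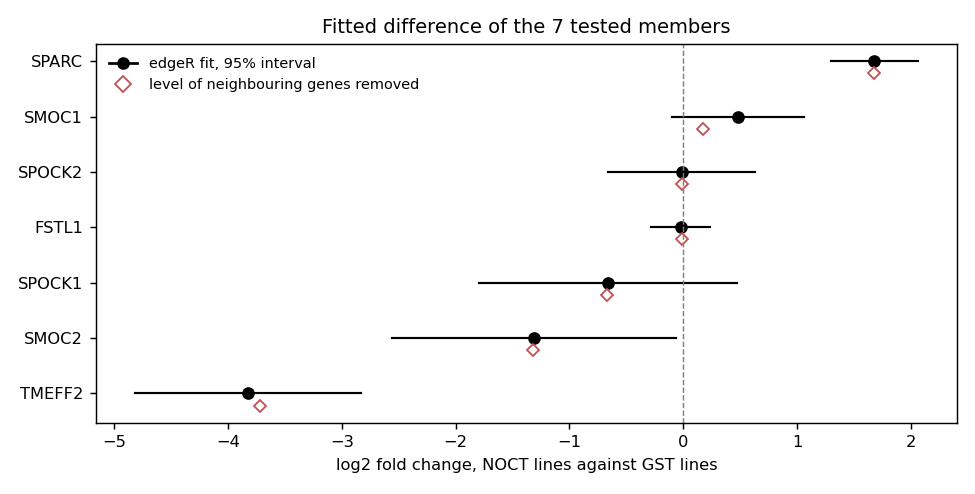
Fitted log2 fold change of NOCT lines against GST lines for the 7 tested members, from edgeR, with 95% intervals, and the same value with the level of the neighbouring genes removed as open diamonds. SPARC lies at 1.68 and TMEFF2 at -3.83, while SMOC1 moves from 0.48 to 0.17 when the level of its neighbours is removed. The fold changes of SPARC and TMEFF2 chose the family, so their intervals are a description only and take no account of that choice.

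The order of levels within the family differed between the groups. In the GST lines FSTL1 was the highest member, at 32.5 TPM ± 5.18 (SD, n = 3), followed by SPARC at 13.8 TPM ± 3.91 and SMOC1 at 12.5 TPM ± 1.63. SPARC and SMOC1 overlapped there, with SPARC the higher in 2 of 3 lines. TMEFF2 came next at 4.62 TPM ± 1.14, apart from the members above and below it. SPOCK1, SPOCK2 and SMOC2 followed at 1.12, 0.934 and 0.814 TPM, and neighbours in that order overlapped.

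In the NOCT lines SPARC was first, at 46.7 TPM ± 4.11 (SD, n = 3), above FSTL1 at 33.8 TPM ± 1.94 and SMOC1 at 18.5 TPM ± 6.05, and none of these ranges overlapped. TMEFF2 was in the seventh place at 0.343 TPM ± 0.208, below SPOCK2, SPOCK1 and SMOC2, whose ranges and that of TMEFF2 overlapped step by step. Among all genes with a count in the group, SPARC lay above 77.3% in the GST lines and 92.9% in the NOCT lines. TMEFF2 lay above 62.2% and 29.6%. FSTL1 lay above 89.6% and 89.5%.

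The ratio of SPARC to FSTL1 within a line needs no scaling between libraries. These are the 2 members with the highest mean TPM in each group, though SMOC1 lay above SPARC in GST line 2. In TPM it was 0.401, 0.479 and 0.378 in GST lines 2, 8 and 9 and 1.37, 1.58 and 1.205 in NOCT lines 4, 11 and 12. FSTL1 was therefore the higher of the pair in every GST line, and SPARC in every NOCT line. The ratio of SPARC to TMEFF2 was 3.39, 3.36 and 2.31 in the GST lines and 327, 89.0 and 131 in the NOCT lines.

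The summed level of the 10 members was 60.9, 76.4 and 62.4 TPM in the GST lines and 102.5, 98.4 and 104.1 TPM in the NOCT lines. SPARC made up 18.5%, 23.9% and 18.9% of that sum in the GST lines and 46.8%, 50.8% and 40.4% in the NOCT lines. TMEFF2 made up 5.44%, 7.12% and 8.18% in the GST lines and 0.143%, 0.571% and 0.309% in the NOCT lines. The share of FSTL1 was 46.0%, 50.0% and 50.1% against 34.1%, 32.1% and 33.6%, at a level that itself did not pass the test.

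**Figure D3:**
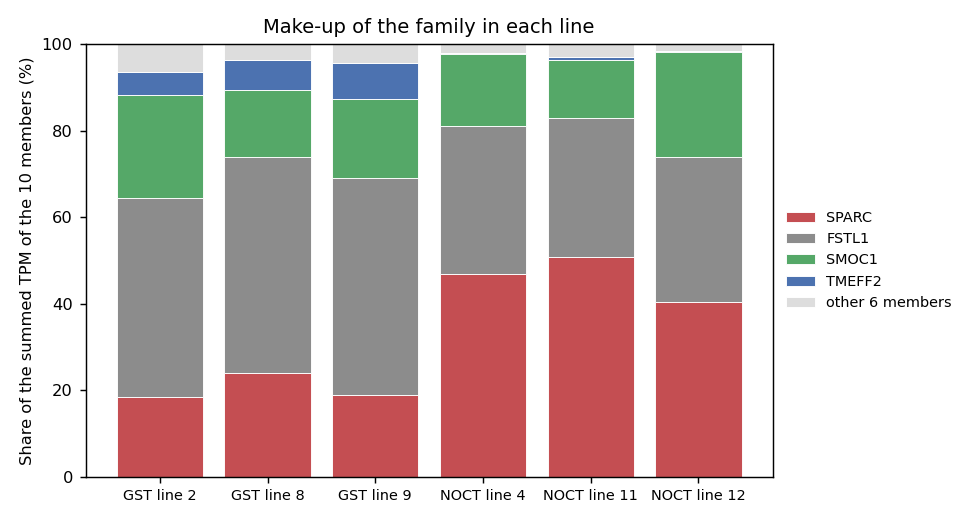
Share of each member in the summed TPM of the 10 members (percent, stacked bars from 0 to 100), with 1 bar for each of the 6 lines. SPARC takes 18.5% to 23.9% in the GST lines and 40.4% to 50.8% in the NOCT lines, and the TMEFF2 segment shrinks from 5.44% or more to 0.571% or less.

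Clonal lines can differ in chromosome copy number, so the levels of the genes around SPARC and TMEFF2 are given here. Copy number was not measured, and its part in the level of either gene was not tested. A median over many neighbours would not show a change limited to SPARC or TMEFF2. Around SPARC, the median log2 deviation of the neighbours stayed between -0.03 and 0.04 in all 6 lines. The nearest tested genes were GM2A (log2 fold change 0.09), SLC36A1 (0.14), ATOX1 (-0.32) and AC091982.3 (0.24), and the smallest edgeR adjusted p among them was 0.369, for ATOX1. ATOX1, a copper chaperone that lies 55.2 kb from SPARC, had 14.3 CPM ± 1.08 (SD, n = 3) in the GST lines and 11.5 CPM ± 0.801 in the NOCT lines. With the level of the neighbours removed, SPARC stood at 1.67.

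Around TMEFF2, the median deviation of the neighbours was 0.09, 0.06 and 0.04 in the GST lines and -0.41, 0.05 and 0.12 in NOCT lines 4, 11 and 12. NOCT line 4, where the neighbours were low, also had the lowest TMEFF2. In NOCT lines 11 and 12 the neighbours were at or above the mean, and TMEFF2 was at 11.5% and 6.89% of the GST mean. Among the nearest tested genes were NABP1 (log2 fold change -0.21), SLC39A10 (-0.42) and DNAH7 (-0.58), with edgeR adjusted p-values of 0.665, 0.325 and 0.370. NABP1 lies 252 kb away, and SLC39A10 on the other side lies 3380 kb away. With the level of the neighbours removed, TMEFF2 stood at -3.72. No annotated gene overlapped SPARC or TMEFF2 on the same strand. On the opposite strand, CLMAT3 had at most 1 count per line at SPARC, and AC098617.1 had 0 to 5 counts per line at TMEFF2.

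The genes whose level followed SPARC most closely were SLC41A2 (Pearson r = 0.997), GPRC5A (0.995) and LYPD1 (0.994), over 6 lines and 14920 genes with at least 1 CPM. GPRC5A, a retinoic-acid-induced membrane receptor, had 26.8, 38.4 and 31.6 CPM in the GST lines and 116.0, 121.6 and 106.6 CPM in the NOCT lines, a log2 fold change of 1.83. SLC41A2, a magnesium transporter, moved by only 0.20, so likeness of pattern says nothing of size. The genes most like TMEFF2 were NR1D2 (0.995), WNK2 (0.994) and TXN (0.994). NR1D2 encodes the clock repressor REV-ERB beta and had a log2 fold change of -0.43. The 6 points are lines of 2 groups and share their libraries, so these values are given without a test.

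Partner and pathway genes of the family were followed in 9 lists with 93 distinct genes tested. None of the 93 was called by edgeR, and the smallest adjusted p was 0.0563. An unadjusted p under 0.05 was found for 33 of them (35.5%), against 13.9% of all genes tested. The lists were chosen with earlier results of these data known. Nothing is therefore read from the shares, medians and counts by direction given in this paragraph or for the single lists below. DESeq2 called 7 of the 93, where it called 508 (2.94%) of all genes tested, and limma voom called 0, where it called 16 (0.0927%). The log2 fold change was above 0 for 55 and below 0 for 38, with a median of 0.11 against 0.00 over all genes tested.

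Other genes with a follistatin-like or Kazal-type domain had a median log2 fold change of 0.06 over the 10 tested of 13. IGFBP7, a secreted protein that binds insulin-like growth factors, had 7.34, 8.40 and 4.10 TPM in the GST lines and 38.2, 25.4 and 24.7 TPM in the NOCT lines. Its groups did not overlap, and its log2 fold change of 2.06 (SE 0.28) had an edgeR adjusted p of 0.0563. HTRA3, a secreted protease, had a log2 fold change of -0.91, and AGRN, the heparan sulphate proteoglycan agrin, one of 0.22, and neither passed.

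Of the ligands of the activin, BMP and TGF-beta family, 14 of 17 were tested, 9 above 0 and 5 below, with a median of 0.32. TGFB1 had 11.3, 6.76 and 8.14 TPM in the GST lines and 60.4, 44.4 and 15.6 TPM in the NOCT lines, which gave 2.08 on the log2 scale (edgeR adjusted p = 0.133). BMP5 (-2.15) and GDF11 (-0.49) lay on the other side of 0. BMP5 was scarce, with 10, 15 and 13 counts in the GST lines and 1, 1 and 7 in the NOCT lines. The receptors and SMADs, which carry the signal of these ligands, had a median of -0.05 over 16 of 17 tested, with SMAD3 at 0.36, SMAD9 at -0.49 and ACVR2B at -0.30.

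Among genes known as targets of SMAD signalling, 9 of 12 were tested and 7 had an unadjusted p under 0.05, in both directions, with a median of -0.20. Over all genes tested the share with such a p was 13.9%. The list was chosen with earlier results known, so nothing is read from that difference. SMAD7, an inhibitor of the pathway induced by TGF-beta, had 25.5, 24.3 and 33.5 TPM in the GST lines and 95.5, 91.7 and 57.4 TPM in the NOCT lines. Its log2 fold change was 1.46 (edgeR adjusted p = 0.0563). ID3, a target of BMP signalling, had 44.6, 63.4 and 69.9 TPM in the GST lines and 16.4, 15.3 and 33.9 TPM in the NOCT lines, which gave -1.51 on the log2 scale (edgeR adjusted p = 0.155). SKIL, a repressor of SMADs, stood at 0.47. For both SMAD7 and ID3 the groups did not overlap, and NOCT line 12 was the NOCT line nearest to the GST lines.

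Partners of the TMEFF proteins among PDGF ligands, ERBB receptors and ADAM proteases had a median of -0.11 over 10 of 13 tested. ADAM17, the protease known to shed the outer part of TMEFF2, stood at -0.39 (edgeR adjusted p = 0.335). ERBB4 stood at -0.50 and ERBB3 at 0.49. DIP2A, the only tested one of 3 receptors of FSTL1, had a log2 fold change of 0.00 when rounded.

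Collagens and other matrix partners of SPARC lay mostly above 0, 11 of 13 tested, with a median of 0.52 against 0.00 over all genes tested. In several of them NOCT line 12 lay within or below the range of the GST lines in TPM. ITGAV, the integrin alpha V chain, had 37.7, 38.5 and 34.8 TPM in the GST lines and 61.3, 77.5 and 43.1 TPM in the NOCT lines, which gave 0.62 on the log2 scale (edgeR adjusted p = 0.212). Its partner chain ITGB3 stood at 1.85 but was scarce, with 3, 6 and 6 counts in GST lines 2, 8 and 9. It had 40, 11 and 12 counts in NOCT lines 4, 11 and 12. COL5A1, a fibrillar collagen chain, had 3.10, 3.04 and 2.31 TPM in the GST lines and 26.9, 14.6 and 2.07 TPM in the NOCT lines, so that NOCT lines 4 and 11 were high and NOCT line 12 lay below the GST lines.

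Matricellular proteins beside SPARC lay above 0 for 8 of 9 tested, with a median of 0.63. THBS1, thrombospondin 1, had 0.960, 0.295 and 0.581 TPM in the GST lines and 7.34, 3.47 and 0.589 TPM in the NOCT lines. CTGF had 3.39, 2.08 and 3.56 TPM in the GST lines and 45.9, 11.7 and 2.91 TPM in the NOCT lines. CYR61 had a log2 fold change of 1.21. Proteases and inhibitors linked to the testicans and SPARC had a median of 0.35 over 11 of 13 tested. MMP2, a gelatinase, had 0.718, 1.26 and 0.471 TPM in the GST lines and 5.99, 5.82 and 0.806 TPM in the NOCT lines. The inhibitors TIMP3 and TIMP1 stood at 1.02 and 0.47. The edgeR fit over all 6 lines called none of these genes. In COL5A1, THBS1, CTGF, MMP2, TIMP3 and TIMP1 the value of NOCT line 12 lay within or below the range of the GST lines. SPARC stood at 42.1 TPM in NOCT line 12, above all GST lines. Without NOCT line 12, edgeR called 26 of the listed genes and 970 (5.42%) of all genes tested. Leaving out any other single line gave 0 calls among the listed genes. NOCT line 12 is singled out here after its values were seen, so nothing is read from the 26 calls.

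**Figure D4:**
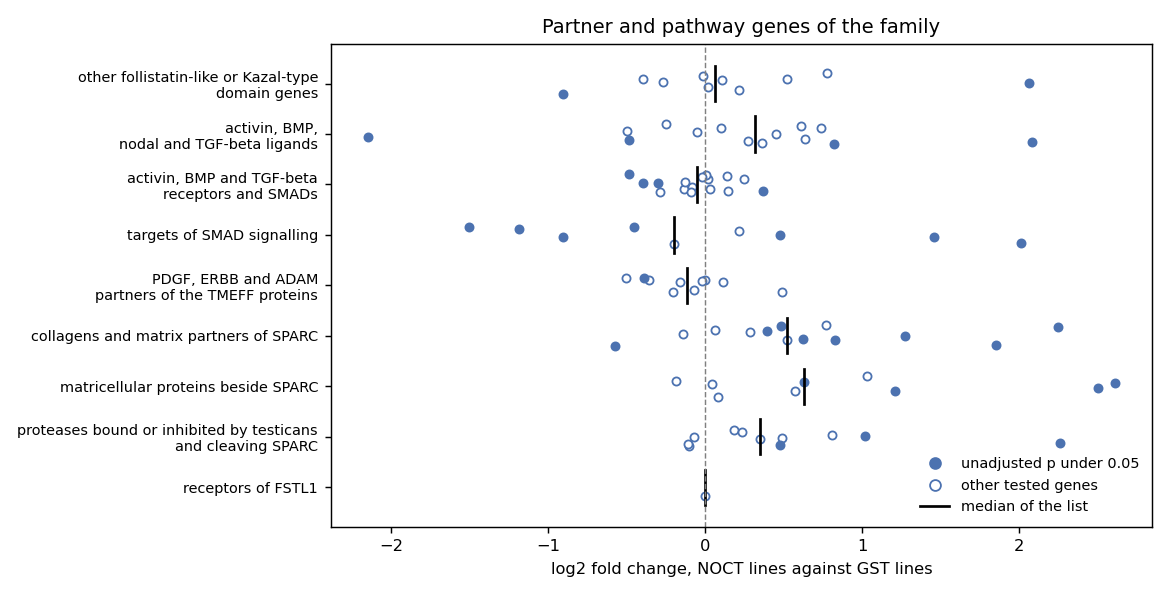
Log2 fold change of NOCT lines against GST lines for the tested genes of 9 partner and pathway lists, with 1 point per gene, filled where the unadjusted p was under 0.05, and a bar at the median of each list. Medians run from -0.20 for targets of SMAD signalling to 0.63 for matricellular proteins, and edgeR called no gene shown after adjustment over all genes, where DESeq2 called 7.

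SPARC is abundant in fibroblasts and endothelial cells and SPARCL1 in astrocytes, so markers of cells other than HEK293 were summed in each line. Of 8 fibroblast markers, 7 had a count and COL1A2 was at 0, and their sum was 3.52 to 4.06 TPM in the GST lines and 2.54 to 9.00 TPM in the NOCT lines. Of 6 endothelial markers, 5 had a count and CLDN5 was at 0, with sums of 0.711 to 1.82 TPM and 0.110 to 1.05 TPM. Of 6 blood markers, 4 had a count and CD3E and HBB were at 0, with sums of 0.645 to 0.813 TPM and 0.504 to 0.987 TPM. All 6 neuronal markers had counts, with sums of 10.4 to 14.3 TPM in the GST lines and 6.64 to 13.8 TPM in the NOCT lines. The 6 astrocyte and radial glia markers summed to 14.9 to 20.8 TPM and 10.9 to 15.5 TPM. Most of that came from SLC1A3, with means of 16.9 TPM in the GST lines and 11.8 TPM in the NOCT lines. A mean of at least 1 TPM was reached by 1 fibroblast, 0 endothelial, 0 blood, 3 neuronal and 1 glial marker. The sums overlapped between groups for each of these cell types, and their part in the levels of SPARC and TMEFF2 was not tested.

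The authors' deposited table gives shrunken log2 fold changes for 9 of the 10 members. In the authors' deposited table SPARC had 1.45 and TMEFF2 -2.32, both closer to 0 than the values fitted here. SMOC1 had 0.37, SMOC2 -0.46, SPOCK1 -0.32, SPOCK2 -0.01 and FSTL1 -0.03 in the authors' deposited table, with adjusted p-values of 0.391, 0.328, 0.633, 0.994 and 0.972. Of the 17058 rows with an adjusted p in the authors' deposited table, 255 (1.49%) were higher and 235 (1.38%) lower at an adjusted p under 0.05. SPARC and TMEFF2 were among those rows, which the choice of the family had fixed.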

How the data were processed

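The authors deposited 1 table of whole read counts per gene for each of the 6 lines, a table of TPM values and a DESeq2 comparison. Per the submitters' processing notes, STAR 2.5.2b, HTSeq 0.6.1p1, cutadapt 1.8.1, Trimmomatic 0.33 and DESeq2 1.16.1 were used on build GRCh38. The annotation release is not given in the sources used here. Libraries were ribosomal RNA-depleted and strand-specific with 50 bp reads, per the labels' protocols. Each of the deposited count tables holds 58494 rows: 58395 genes, 92 spike-ins, 2 construct rows and 5 unnamed rows. The unnamed rows held 42.9% to 47.1% of the counts and were left out. The authors' DESeq2 table gives a mean normalised count (a signal averaged over libraries), a shrunken log2 fold change with its error, a test score, and a p-value with its adjusted value. Its direction was read from the construct rows, which its header does not state.

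Counts were fitted with edgeR 4.0.16 in R 4.3.3 (filterByExpr, TMM over genes, quasi-likelihood test, Benjamini-Hochberg over 17261 genes). Standard errors were derived from the F statistic. The test was first checked on simulated data. DESeq2 1.42.0, limma 3.58.1 (voom, and log2(TPM + 1) or log2(TPM + 0.1) with a mean of at least 0.5 TPM), other scalings and filters, an offset for neighbouring genes, and leaving out each line were alternatives. Limits for 0 counts rest on 3 counts. Intervals are at 95%. Coordinates are from GENCODE release 29 on GRCh38, which matched 58275 genes by identifier. Sequences are from RefSeq (GRCh38.p14).

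The members and lists were chosen with earlier results of these data known. The text names every member, genes that overlap a member, the 2 nearest tested genes on each side of SPARC and TMEFF2, the 3 genes most like each in log2(CPM + 0.5), and of each list at most the 3 genes with the smallest unadjusted p. One gene that this rule names is not reported here.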

Additional observations from a re-analysis of the deposited data

How the results depend on the processing

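SPARC, TMEFF2, SMOC1, SMOC2 and SPOCK1 kept their direction under every alternative that gave a value. For SPARC and TMEFF2, whose fold changes chose the family and whose groups did not overlap, nothing is read from that. SPOCK2 changed sign with limma voom (0.0083), log2(TPM + 1) with and without a filter (0.042 each), log2(TPM + 0.1) (0.094), the spike-in totals (0.13), without GST line 8 and without NOCT line 11, and leaving out a line gave -0.18 to 0.23. FSTL1 changed sign with log2(TPM + 1) with and without a filter (0.066 each), log2(TPM + 0.1) (0.068), the spike-in totals (0.12), without GST line 8 and without NOCT line 11, and leaving out a line gave -0.095 to 0.065. The 3 limma fits on log2 TPM called 0 members, against 2 with edgeR, and leaving out a line gave 0 to 2. The number of all genes called, 10 with edgeR, was 508 with DESeq2, 16 with limma voom, 22 with the spike-in totals, 888 with no filter on low counts and 35 with the level of neighbouring genes removed. It was 4 with log2(TPM + 1) and 2 with log2(TPM + 0.1). It was 0 with log2(TPM + 1) and no filter, where 3018 genes had an unadjusted p under 0.05. Leaving out a line gave 0 to 970 genes; without GST line 9 it was 0, with 1488 at an unadjusted p under 0.05. Of the listed pathway genes, 0 with edgeR, DESeq2 called 7, no filter on low counts 18, and the spike-in totals and the level of neighbouring genes removed 2 each, and leaving out a line gave 0 to 26. The cause of these changes was not tested. By CPM in place of TPM, 4 of 10 members kept the same order of lines. Counts of a few reads per line limit SPOCK3, SPARCL1 and TMEFF1. No paired analysis was possible because the line numbers of the groups do not match.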
